A study of Mus musculus with 76 samples.

Results

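Glrb, Lhfpl4, Nlgn2, Nlgn3, Iqsec3 and Slitrk3 encode postsynaptic proteins that meet gephyrin, or stand beside it, at inhibitory synapses. They were taken by name from the table of estimated counts, as 6 of its 35825 gene symbols, and all 6 had counts in both genotypes. The data are Patch-seq libraries, made from the contents of single neurons drawn into a patch pipette in an acute slice and prepared with Nextera XT. The neurons expressed tdTomato, lay in the pyramidal cell layer of dorsal CA1 of the hippocampus and came from untreated pups of postnatal day 4.

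Each group was defined by genotype and sex. Mut cells carried gephyrin with serines 268 and 270 replaced by alanine (GPHNS268/270A), and WT cells carried the unmodified protein (GPHNWT). All cells of both genotypes also carried Nkx2.1-Cre and the Ai14 reporter, so the marked cells are those with a history of Nkx2.1 expression, the lineage of the medial ganglionic eminence (MGE), enriched by their position for putative parvalbumin basket cells. Of 76 labelled cells the authors kept 67, and 62 of these had no contamination mark. Among the cells without the mark, the quality filter removed 8 of 42 Mut and 1 of 29 WT cells, so the genotypes were not equally filtered. The 62 were 19 Mut female, 9 WT female, 15 Mut male and 19 WT male cells. A further 5 kept WT cells, 1 female and 4 male, bore the mark and are described apart. No animal, litter or batch is named, so cells were not used as replicates, and each group was 1 sum of cells in the tests.

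Gephyrin, the product of Gphn, forms a lattice under the inhibitory postsynaptic membrane that holds glycine and GABA-A receptors in place, and its serines 268 and 270 are phosphorylation sites. The glycine receptor beta subunit, encoded by Glrb, binds gephyrin through its large intracellular loop. Neuroligin-2 (Nlgn2) binds it through a short cytoplasmic stretch around a conserved tyrosine, and LHFPL4 ties GABA-A receptors to neuroligin-2. Neuroligin-3 (Nlgn3) is found at both inhibitory and excitatory synapses. IQSEC3 is an exchange factor for the small GTPase Arf6 that binds gephyrin, and SLITRK3 is an adhesion protein that pairs with the presynaptic receptor phosphatase PTPRD. In the hippocampus these proteins are known mainly from inhibitory synapses onto pyramidal cells, while interneurons also receive such synapses.

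The coding stretches of the substituted serines of Gphn, of the gephyrin-binding sites of Glrb and Nlgn2 and of the matching Nlgn3 site are shown first. They lie in different genes, and the Gphn stretch is not shown as a site that binds the partners. They come from the GENCODE M21 transcripts on the GRCm38 build, read 5′ to 3′ along the coding strand, with codons counted from the start codon. The Gphn stretch lies in exon 8 of Gphn-201 at chr12:78504665-78504721 on the plus strand, covers codons 260 to 278, and has the codons of serines 268 and 270 in capitals. The Glrb stretch lies in exon 10 of Glrb-201 at chr3:80845165-80845215 on the minus strand, covers codons 414 to 430, and has in capitals codons 420 to 424, the core of the loop that binds gephyrin. The Nlgn2 stretch lies in exon 8 of Nlgn2-202 at chr11:69825380-69825430 on the minus strand, covers 17 codons, and has in capitals the middle one, that of the conserved tyrosine 770. The matching Nlgn3 stretch lies in exon 8 of Nlgn3-206 at chrX:101320065-101320115 on the plus strand, covers codons 781 to 797, and has in capitals the tyrosine codon 789.
Gphn: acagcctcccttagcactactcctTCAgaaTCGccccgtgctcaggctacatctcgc
Glrb: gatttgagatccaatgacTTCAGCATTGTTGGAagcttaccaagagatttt
Nlgn2: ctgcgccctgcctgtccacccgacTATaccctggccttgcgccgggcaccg
Nlgn3: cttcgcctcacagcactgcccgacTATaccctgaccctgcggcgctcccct

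The Nlgn2 and Nlgn3 stretches were identical in 34 of 51 bases and in 11 of 17 encoded residues. On GRCm38, Slitrk3 (chr3:73047265-73057803) and Glrb (chr3:80843599-80913660) lie on the minus strand of chromosome 3. Lhfpl4 (chr6:113168090-113195384) and Iqsec3 (chr6:121372933-121473678) lie on the minus strand of chromosome 6, and Nlgn2 (chr11:69823122-69837784) on that of chromosome 11. Nlgn3 (chrX:101299168-101325963) lies on the plus strand of the X chromosome and is the only X-linked partner. It is also the only one of the 6 that overlaps another annotated gene, Gm21986 on the same strand. The count estimates of Lhfpl4 were not whole numbers in 54 of 62 cells, and those of Nlgn3 in 51 (tolerance 0.01 counts). The same held for Glrb in 36 cells, Iqsec3 in 15 and Slitrk3 in 3. Shares among transcripts of the same gene add up to whole numbers, so reads of these genes were in part shared with other gene symbols.

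The 62 cells held 2946456 to 12070780 counts (median 6353179), with 9057 to 13663 genes detected. MGE identity was checked on its markers. Lhx6, a transcription factor of the MGE lineage, reached a level of 10 CPM (counts per 1e6 counts of the cell) in 31 of 34 Mut and 26 of 28 WT cells, and Gad1, which makes GABA, in 32 Mut and 26 WT cells. Slc32a1, the vesicular GABA transporter, did so in 13 Mut and 10 WT cells, and Nkx2-1, whose promoter drove the Cre, in 4 Mut and 7 WT cells. The summed level of the 12 MGE markers ran from 66.3 to 14255 CPM in Mut cells and from 58.5 to 7147 CPM in WT cells, and 5 cells carried only 2 of them. Transcripts of pyramidal neurons, the cells that surround these interneurons, were also present. All 8 listed pyramidal markers reached 10 CPM in some Mut and some WT cell, their summed level ran from 1.52 to 941 CPM in Mut cells and from 1.13 to 2154 CPM in WT cells, and Neurod6 alone reached 10 CPM in 15 Mut and 16 WT cells. The summed level of 10 astrocyte markers ran from 5.62 to 11166 CPM in Mut cells and from 22.7 to 10525 CPM in WT cells (medians 203 and 588).

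The partners were not equally abundant. On the deposited TPM scale, which is corrected for transcript length and so allows levels of different genes to be set side by side, the median over the 62 cells was 27.8 TPM for Glrb and 24.1 TPM for Nlgn3. The same median was 4.19 TPM for Lhfpl4 and 2.36 TPM for Nlgn2, against 15.98 TPM for Gphn itself. Iqsec3 and Slitrk3 had medians of 0.280 and 0.235 TPM. The spread between cells was wider than most of these steps. The middle 50% of cells ran from 3.44 to 101.5 TPM for Glrb, from 1.32 to 43.6 TPM for Nlgn3, from 0.895 to 27.0 TPM for Lhfpl4 and from 0.272 to 10.6 TPM for Nlgn2. It ran from 0.0910 to 14.5 TPM for Iqsec3 and from 0.0812 to 4.05 TPM for Slitrk3, so no 2 neighbours in this order were separated by their spread. By the mean, Slitrk3 (9.94 ± 36.9 TPM, SD over 62 cells) and Iqsec3 (9.66 ± 17.6 TPM) changed places.

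The low medians of Iqsec3 and Slitrk3 hid cells with high levels, up to 499 and 662 CPM. A cell is called carrying a gene here at 10 CPM or more. Nlgn3 was carried by 44 of 62 cells (71.0%, exact 95% interval 58.1% to 81.8%), Glrb by 41 (66.1%, 53.0% to 77.7%), and Lhfpl4 and Nlgn2 by 30 each (48.4%, 35.5% to 61.4%). Iqsec3 was carried by 24 cells (38.7%, 26.6% to 51.9%) and Slitrk3 by 17 (27.4%, 16.9% to 40.2%), and Gphn by 35 (56.5%, 43.3% to 69.0%). These intervals cover counting error only, since cells of an animal are not independent. Among carrying cells the median level was 145 CPM for Glrb, 162 CPM for Nlgn3, 93.1 CPM for Iqsec3, 83.4 CPM for Lhfpl4, 41.1 CPM for Nlgn2 and 33.7 CPM for Slitrk3 (not corrected for length). Iqsec3 was the most sharply divided of the partners by count. Only 5 cells lay between 3 and 30 CPM, with 34 below and 23 above. Nlgn2 showed no such gap, with 24 cells in that range, 20 below and 18 above. Slitrk3 had 12 cells in that range, 40 below and 10 above. The range held 11 cells for Glrb, 12 for Nlgn3 and 15 for Lhfpl4.

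**Figure D1:**
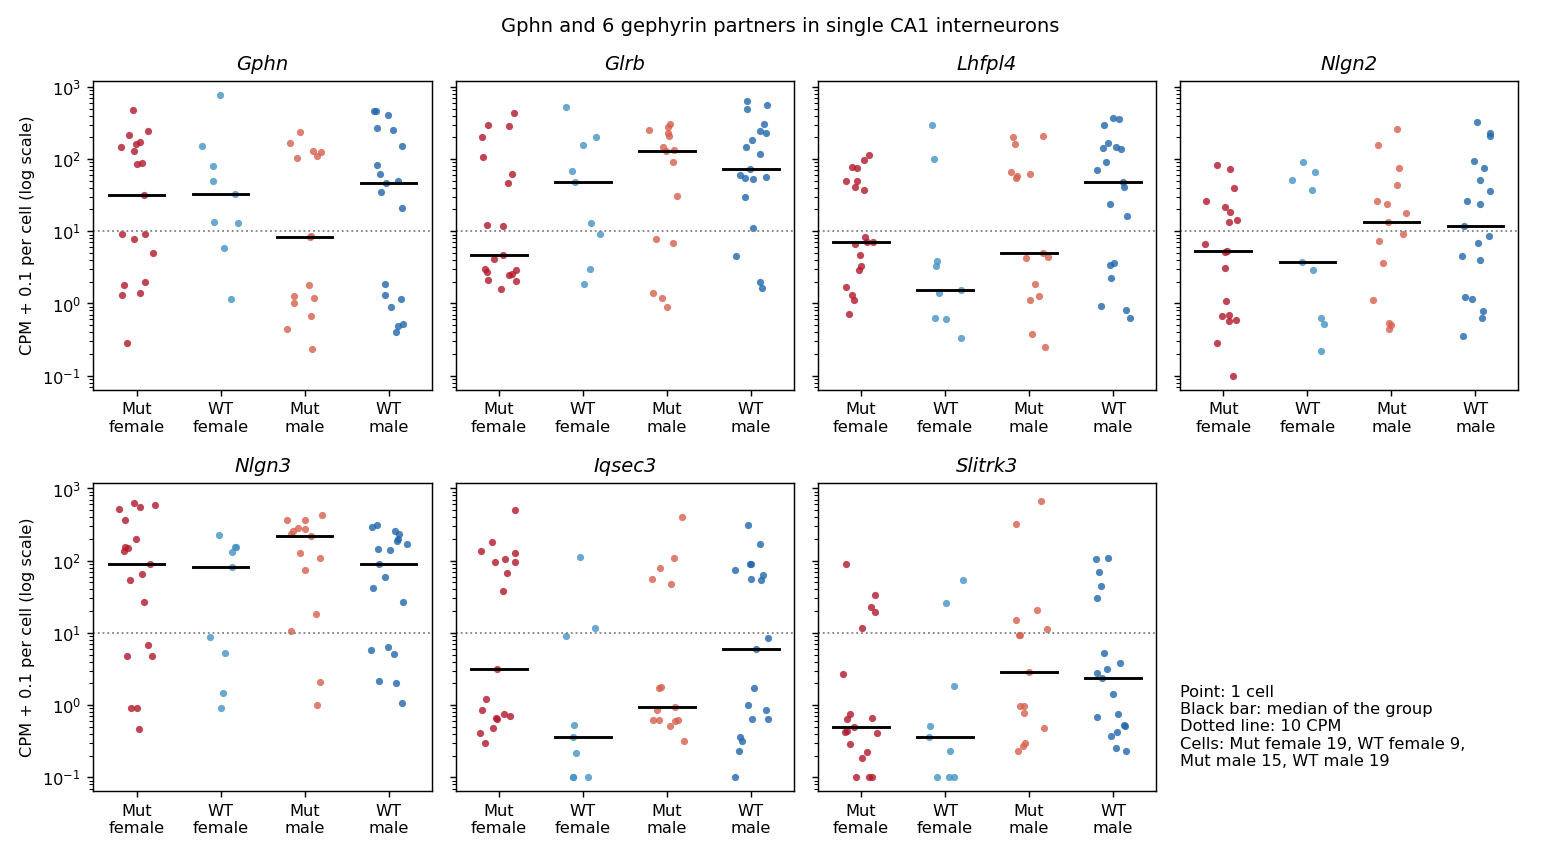
Levels of Gphn and the 6 partners in each of the 62 kept unmarked cells, as CPM plus 0.1 on a log axis, for Mut female, WT female, Mut male and WT male cells (19, 9, 15 and 19). Each point is a cell, the black bar is the group median and the dotted line marks 10 CPM. For Iqsec3 the points fall into a low and a high cloud, with 5 of 62 cells between 3 and 30 CPM, while those of Nlgn2 show no such gap, with 24 cells there.

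Across genotypes, none of the 6 partners passed the test. Summed over cells, Nlgn3 was higher in Mut than in WT cells of both sexes, Glrb, Lhfpl4 and Nlgn2 were lower in Mut cells of both sexes, and Iqsec3 and Slitrk3 went opposite ways in females and males. In edgeR's quasi-likelihood test on the 4 sums, with sex as a term, 0 of 16435 genes passed a Benjamini-Hochberg adjusted p of 0.05 (0% of all genes, 0 of 6 partners, all of which passed the filter on low counts). The p-values measure only the spread between these sums. At an unadjusted p under 0.05 the test had 273 genes higher and 302 lower in Mut, with no partner among them. DESeq2, fitted to the same sums, passed 666 of 14841 genes (4.49%), also with no partner among them (lowest adjusted p among them 0.80). The edgeR fit leaves 1 residual degree of freedom and had a biological coefficient of variation of 0.958. On simulated data with that variation in every gene, it recovered 0% of changes of 2 and 4 log2 units. At such a variation the edgeR test on 4 sums could thus not have called such changes. DESeq2 was not run on the simulated data. For the direction in both sexes the background is also wide, since 50.2% of all genes tested had the same sign in females and males. Summed counts do not tell fewer cells with a transcript from less of it per cell, so both the sums and the shares of carrying cells are given for each partner.

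Counts of the receptor subunit Glrb were above 0 in every cell, as were those of Lhfpl4, Nlgn3 and Gphn. Glrb lay under 3 CPM in 15 of the 62 cells. Its level in single cells ran from 1.49 to 440.1 CPM (median 4.65) in Mut females and from 1.74 to 527 CPM (median 47.3) in WT females. It ran from 0.794 to 305 CPM (median 130.4) in Mut males and from 1.52 to 638 CPM (median 71.5) in WT males. The ranges of Mut and WT cells overlapped throughout, and the order of the medians turned between the sexes. Glrb was carried by 19 of 34 Mut cells (55.9%, exact 95% interval 37.9% to 72.8%) and by 22 of 28 WT cells (78.6%, 59.0% to 91.7%). By sex these were 9 of 19 Mut (24.4% to 71.1%) against 6 of 9 WT female cells (29.9% to 92.5%). In males they were 10 of 15 Mut (38.4% to 88.2%) against 16 of 19 WT cells (60.4% to 96.6%). The share was thus lower in Mut cells of both sexes, by amounts within the counting intervals of each sex. Over both sexes the intervals overlapped, but each share lay outside the interval of the other genotype. The summed level, scaled by TMM, was 92.0 CPM in Mut females and 150.0 CPM in WT females (95% Poisson intervals 90.3 to 93.7 and 147 to 153), and 120.3 CPM in Mut males and 166 CPM in WT males (118 to 122 and 164 to 168). The log2 ratio of Mut to WT was -0.70 in females and -0.46 in males, and the fitted log2 fold change was -0.58 (SE 0.46, edgeR p = 0.26, adjusted p = 1). The Poisson intervals here and below count reads, not molecules, and leave out the spread between cells. A single cell carried much of the Glrb difference. WT female cell 9 held 62.6% of the Glrb counts of its group, and without it the female ratio was 0.51 and the fold change 0.028.

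Glrb needs an alpha subunit to form a glycine receptor with it. Of the 4 alpha subunit genes only Glra2 and Glra3 had enough counts to be tested. Glra2, the subunit of fetal and neonatal neurons, was carried by 6 Mut and 6 WT cells, at 13.6 CPM in Mut against 23.7 CPM in WT females and 4.27 CPM in Mut against 7.75 CPM in WT males. Glra3 was carried by 0 of 34 Mut cells (exact 95% interval up to 10.3%) and by 1 WT cell, which held 74.6% of its WT counts, and had an unadjusted edgeR p of 0.019 (adjusted p = 1). Glrb was thus carried by 41 cells, against 12 cells for Glra2.

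Lhfpl4, which joins GABA-A receptors to neuroligin-2, ran in single cells from 0.611 to 114 CPM (median 6.91) in Mut females and from 0.230 to 293 CPM (median 1.44) in WT females. In males it ran from 0.146 to 208 CPM (median 4.94) in Mut and from 0.526 to 371 CPM (median 47.8) in WT cells. It was carried by 8 of 19 Mut against 2 of 9 WT female cells and by 7 of 15 Mut against 13 of 19 WT male cells, so the order of the shares turned between the sexes. The summed level was 31.8 CPM in Mut females and 41.7 CPM in WT females (Poisson intervals 30.8 to 32.8 and 40.0 to 43.5), and 49.3 CPM in Mut males and 83.8 CPM in WT males (48.0 to 50.6 and 82.2 to 85.3). The log2 ratio was -0.38 in females and -0.75 in males, with a fold change of -0.58 (SE 0.69, edgeR p = 0.44, adjusted p = 1). In WT females 2 cells gave 97.3% of the counts, and without cell 1 or cell 4 the female ratio was 0.15 or 0.47, on the other side of 0.

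Nlgn2, the adhesion protein of inhibitory synapses, ran from 0 to 82.8 CPM (median 5.15) in Mut females and from 0.116 to 90.7 CPM (median 3.64) in WT females. In males it ran from 0.343 to 259 CPM (median 13.2) in Mut and from 0.250 to 327 CPM (median 11.6) in WT cells. The groups overlapped over nearly their whole range, and no Nlgn2 count was seen in 1 Mut female cell. It was carried by 8 of 19 Mut against 4 of 9 WT female cells and by 8 of 15 Mut against 10 of 19 WT male cells. Over both sexes this was 47.1% of Mut and 50% of WT cells. The summed level was 19.9 CPM in Mut females and 28.2 CPM in WT females (Poisson intervals 19.1 to 20.7 and 26.7 to 29.6), and 42.1 CPM in Mut males and 48.8 CPM in WT males (41.0 to 43.3 and 47.6 to 50.03). The log2 ratio was -0.48 in females and -0.21 in males, with a fold change of -0.36 (SE 0.83, edgeR p = 0.68, adjusted p = 1). The male ratio was 0.13 with WT male cell 6 left out, 0.043 with WT male cell 9 left out and -0.84 with Mut male cell 7 left out, and it was 0.084 when taken from the mean TPM. At 50 CPM Nlgn2 was carried by 5 of 34 Mut and 9 of 28 WT cells.

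Nlgn3, the neuroligin of both synapse types, was the partner with the lowest p and the one whose direction held most widely. Its level ran from 0.374 to 632 CPM (median 89.9) in Mut females and from 0.803 to 224 CPM (median 81.4) in WT females. In males it ran from 0.916 to 423 CPM (median 219.8) in Mut and from 0.974 to 310.1 CPM (median 89.8) in WT cells. The lowest cells were alike in all groups, and the highest cells of each sex were Mut. Nlgn3 was carried by 13 of 19 Mut against 5 of 9 WT female cells and by 13 of 15 Mut against 13 of 19 WT male cells. This was 26 of 34 Mut cells (76.5%, exact 95% interval 58.8% to 89.3%) and 18 of 28 WT cells (64.3%, 44.1% to 81.4%), and among carrying cells the median was 211 CPM in Mut and 155 CPM in WT. The summed level was 196 CPM in Mut females and 76.4 CPM in WT females (Poisson intervals 193 to 198 and 74.1 to 78.8), and 171 CPM in Mut males and 109.8 CPM in WT males (169 to 173 and 108 to 112). The log2 ratio was 1.35 in females and 0.63 in males, with a fold change of 0.997 (SE 0.48, edgeR p = 0.0996, adjusted p = 1). With each of the 62 cells left out in turn the fold change stayed between 0.84 and 1.12, with each of the 4 sums left out it lay between 0.75 and 1.30, and under other scalings, filters and choices of cells between 0.76 and 1.08.

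**Figure D2:**
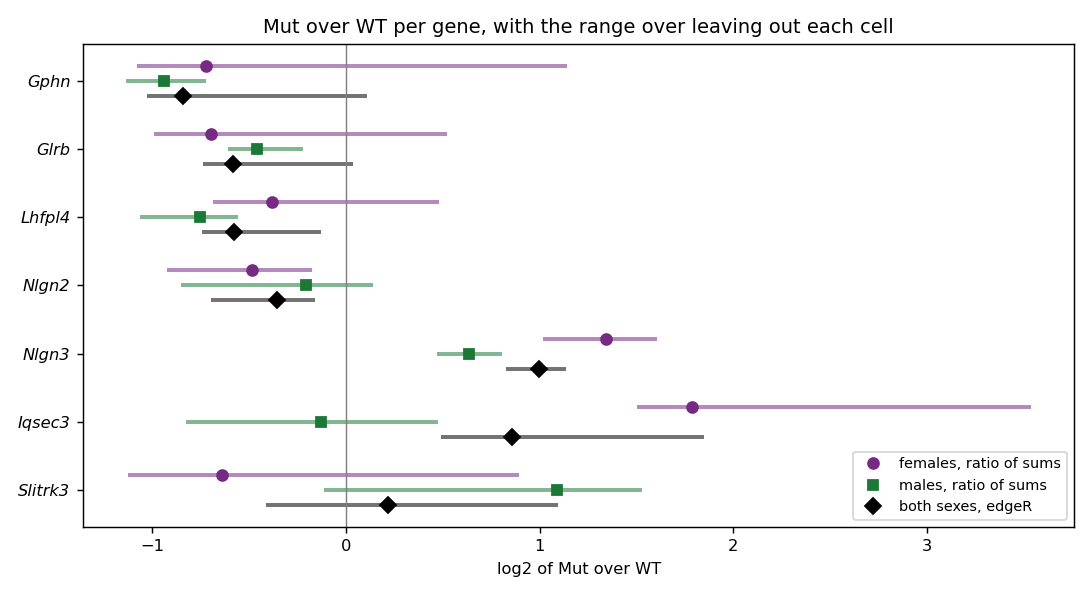
The log2 of Mut over WT for Gphn and each partner, from summed counts in females (circles) and in males (squares) and from the edgeR fit over both sexes (diamonds), where a bar gives the lowest and highest value when each cell is left out in turn. For Nlgn3 all 3 bars lie above 0, while for Gphn and each of the other partners at least 1 bar crosses 0.

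Iqsec3, the Arf6 exchange factor, ran from 0.204 to 499 CPM (median 3.07) in Mut females and from 0 to 113 CPM (median 0.260) in WT females. In males it ran from 0.219 to 406 CPM (median 0.844) in Mut and from 0 to 315 CPM (median 5.89) in WT cells. It was carried by 9 of 19 Mut against 2 of 9 WT female cells (exact 95% intervals 24.4% to 71.1% and 2.81% to 60.0%) and by 5 of 15 Mut against 8 of 19 WT male cells. The summed level was 58.2 CPM in Mut females and 16.2 CPM in WT females (Poisson intervals 56.9 to 59.6 and 15.1 to 17.3), and 39.4 CPM in Mut males and 43.2 CPM in WT males (38.2 to 40.6 and 42.1 to 44.3). The log2 ratio was 1.79 in females and -0.13 in males, with a fold change of 0.86 (SE 0.96, edgeR p = 0.42, adjusted p = 1). WT female cell 2 gave 78.7% of the counts of its group, and without it the female ratio was 3.53 and the fold change 1.84. In males the ratio was 0.47 with WT male cell 5 left out, 0.034 with Mut male cell 12 left out and -0.82 with Mut male cell 3 left out.

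Slitrk3, the partner of PTPRD across the cleft, was carried by the fewest cells, and its sums rested on single cells. It ran from 0 to 88.8 CPM (median 0.403) in Mut females and from 0 to 53.2 CPM (median 0.260) in WT females. In males it ran from 0.131 to 662 CPM (median 2.75) in Mut and from 0.130 to 107 CPM (median 2.27) in WT cells. The highest levels were in Mut male cells 5 and 18, at 662 and 322 CPM, and these 2 gave 88.6% of the counts of their group. Slitrk3 was carried by 5 of 19 Mut against 2 of 9 WT female cells and by 5 of 15 Mut against 5 of 19 WT male cells, shares that lay close together in both sexes. The summed level was 8.34 CPM in Mut females and 13.5 CPM in WT females (Poisson intervals 7.83 to 8.87 and 12.6 to 14.6), and 46.3 CPM in Mut males and 21.2 CPM in WT males (45.0 to 47.5 and 20.4 to 21.98). The log2 ratio was -0.64 in females and 1.09 in males, with a fold change of 0.22 (SE 1.15, edgeR p = 0.86, adjusted p = 1). Without WT female cell 1 the female ratio was 0.88 and the fold change 1.08, without Mut male cell 5 the male ratio was -0.10 and the fold change -0.40, and without Mut female cell 10 the fold change was -0.060. From the mean TPM the female ratio was 0.19.

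Ratios of this size were common among all genes. In females 2 of the 6 partners, Nlgn3 and Iqsec3, were at least 2-fold higher in Mut and 0 at least 2-fold lower, beside 23.1% and 18.2% of all genes tested. In males 1 partner, Slitrk3, was at least 2-fold higher and 0 lower, beside 16.7% and 17.4%. The median fold change of the 6 partners was -0.072 on the log2 scale, and that of all genes was -0.00042. Gphn itself stood at 98.6 CPM in Mut against 164 CPM in WT females and at 57.8 CPM in Mut against 112 CPM in WT males, a log2 fold change of -0.84 (SE 0.49, edgeR p = 0.15, adjusted p = 1). WT female cell 8 gave 75.8% of the Gphn counts of its group, and without it that fold change was 0.098. The substitution does not remove the transcript, so the Gphn level does not check the genotype labels.

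Several partners were carried by more of the cells with Neurod6, the pyramidal transcript named above, without a test. Of the 31 cells with Neurod6 at 10 CPM or more, 24 carried Glrb, 18 Lhfpl4, 18 Nlgn2 and 12 Slitrk3, against 17, 12, 12 and 5 of the 31 cells with less Neurod6. Nlgn3 was carried by 22 cells of each kind and Iqsec3 by 12 of each kind, and Gphn by 20 against 15. Libraries with Neurod6 held more genes in general, with a median of 11507 genes detected against 10801. Over the 5278 genes carried by at least 20 cells the difference in share had a median of 9.68 percentage points, with the middle 50% from 0 to 16.1. The difference was 22.6 points for Glrb and Slitrk3, 19.4 for Lhfpl4 and Nlgn2, 16.1 for Gphn and 0 for Nlgn3 and Iqsec3. Cells with less Neurod6 are not free of pyramidal transcripts, since 16 of these 31 carried some marker of that list. Neurod6 was itself unevenly spread, at 10 CPM or more in 5 of 19 Mut and 4 of 9 WT female cells and in 10 of 15 Mut and 12 of 19 WT male cells. In the 31 cells with less Neurod6 (19 Mut, 12 WT), a choice made after the data were seen, the fold change was -1.53 for Glrb, -0.98 for Nlgn2, 0.76 for Nlgn3 and 2.40 for Slitrk3, in the same directions as over all cells. It was on the other side of 0 for Lhfpl4 (1.33), Iqsec3 (-0.17) and Gphn (2.31). In those cells Glrb was carried by 8 of 19 Mut and 9 of 12 WT cells. The part of pyramidal RNA in the genotype values was not tested beyond this.

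Between the sexes, 4 of the 6 partners were higher in males of both genotypes, beside 26.1% of all genes, and none of these ratios has a test. Nlgn2 was higher in males in both genotypes, with a log2 ratio of male over female of 1.05 in Mut and 0.77 in WT cells, and so were Lhfpl4 (0.62 and 0.99), Glrb (0.38 and 0.14) and Slitrk3 (2.34 and 0.61). Iqsec3 had ratios of -0.55 in Mut and 1.36 in WT cells, and the X-linked Nlgn3 had -0.19 in Mut and 0.52 in WT cells. In Mut cells 2 partners, Nlgn2 and Slitrk3, were at least 2-fold higher in males and 0 lower, beside 16.8% and 17.1% of all genes. With Mut male cell 7 left out the Mut ratio of Nlgn2 was 0.42, and with Mut male cell 5 left out that of Slitrk3 was 1.14. In WT cells 1 partner, Iqsec3, was at least 2-fold higher and 0 lower, beside 23.2% and 18.5%. With WT female cell 2 left out its ratio was 3.11, and with WT male cell 5 left out 0.78. The WT ratio of Glrb was -0.12 with WT female cell 1 left out and 1.35 with WT female cell 9 left out, that of Slitrk3 was 2.13 with WT female cell 1 left out and 0.19 with WT male cell 14 left out, and the Mut ratio of Nlgn3 was 0.043 with Mut female cell 17 left out. The male groups also had the larger share of cells with Neurod6, and its part in these ratios was not tested.

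A cell carried a median of 3 of the 6 partners in each of the 4 groups. All 6 were found together in 3 cells, which were Mut male cell 6 and WT male cells 18 and 19, and 4 cells, of which 1 was Mut, carried none. The commonest number was 3, in 19 of 62 cells. The number carried ran with the number of genes detected in the cell (Spearman rho 0.42 over 62 cells) and with the total count (0.25). Pairs of partners met mostly through the widely carried ones. Of the 30 Nlgn2 cells 26 also carried Glrb (86.7%), which is 63.4% of the 41 Glrb cells, and 25 carried Nlgn3 (83.3%), which is 56.8% of the 44 Nlgn3 cells. Nlgn2 and Lhfpl4, whose proteins bind each other, were carried together by 16 cells, 53.3% of each, with a rho of 0.26. Over the 15 pairs rho ran from -0.075 (Nlgn3 with Iqsec3) to 0.29 (Glrb with Iqsec3).

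**Figure D3:**
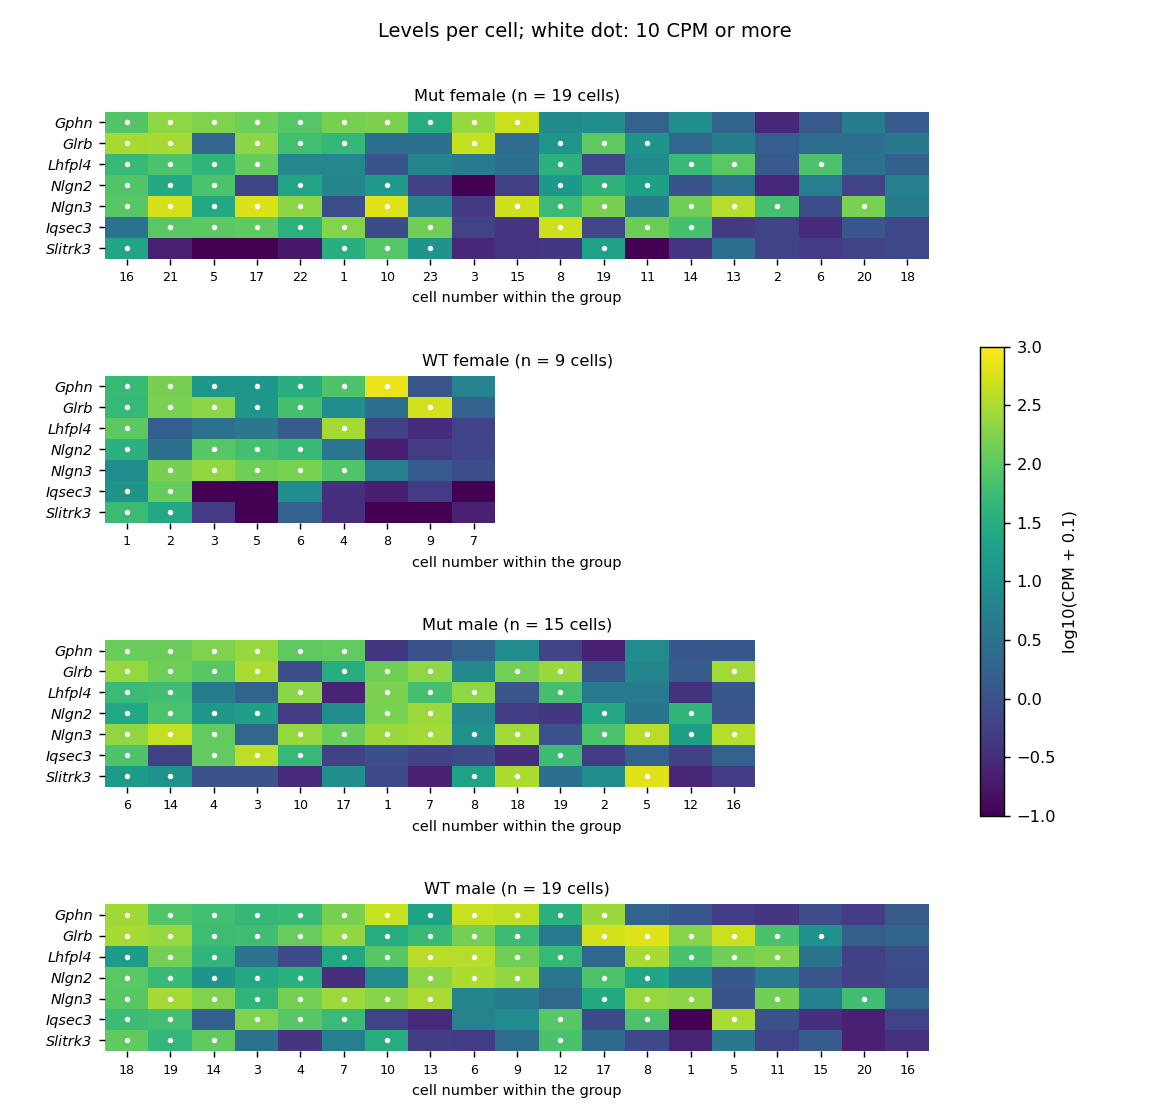
Levels of Gphn and the 6 partners in each cell, as log10 of CPM plus 0.1 in colour, for Mut female, WT female, Mut male and WT male cells, with a white dot at 10 CPM or more. Cells (columns, numbered within the group) stand in order of whether they carry Gphn and then of the number of partners carried. Cells that carry Gphn carried a median of 4 partners and the others a median of 2.

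Over both genotypes together, the partners were carried more often by cells that also carried Gphn, about as much as other genes were. Of the 35 cells with Gphn and the 27 without it, Nlgn2 was carried by 22 and 8 (62.9% and 29.6%), Iqsec3 by 18 and 6 (51.4% and 22.2%), and Glrb by 27 and 14 (77.1% and 51.9%). Slitrk3 was carried by 13 and 4 (37.1% and 14.8%), Nlgn3 by 26 and 18 (74.3% and 66.7%) and Lhfpl4 by 18 and 12 (51.4% and 44.4%). The differences were thus 33.2, 29.2, 25.3, 22.3, 7.62 and 6.98 percentage points in that order. Over the 5278 genes carried by at least 20 cells the median difference was 17.2 points and the middle 50% ran from 8.68 to 25.8, so Nlgn2 and Iqsec3 lay above that range and Lhfpl4 and Nlgn3 below it. Cells with Gphn had a median of 11437 genes detected and those without it 10987.

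Within the genotypes the same comparison gave different leading partners. In Mut cells Iqsec3 was carried by 10 of 16 cells with Gphn and 4 of 18 without it, a difference of 40.3 points where the genes above had a median of 13.9. Nlgn2 was carried in Mut cells by 9 of 16 and 7 of 18 cells, a difference of 17.4 points. Lhfpl4 was carried by 7 of 16 and 8 of 18 Mut cells and Nlgn3 by 12 of 16 and 14 of 18. Neither was thus carried more often with Gphn in Mut cells. In WT cells Nlgn2 was carried by 13 of 19 cells with Gphn and 1 of 9 without it, a difference of 57.3 points where the median was 23.4, and Slitrk3 by 7 of 19 and 0 of 9 (exact 95% interval up to 33.6%). Whether the genotypes differ in this was not tested.

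**Figure D4:**
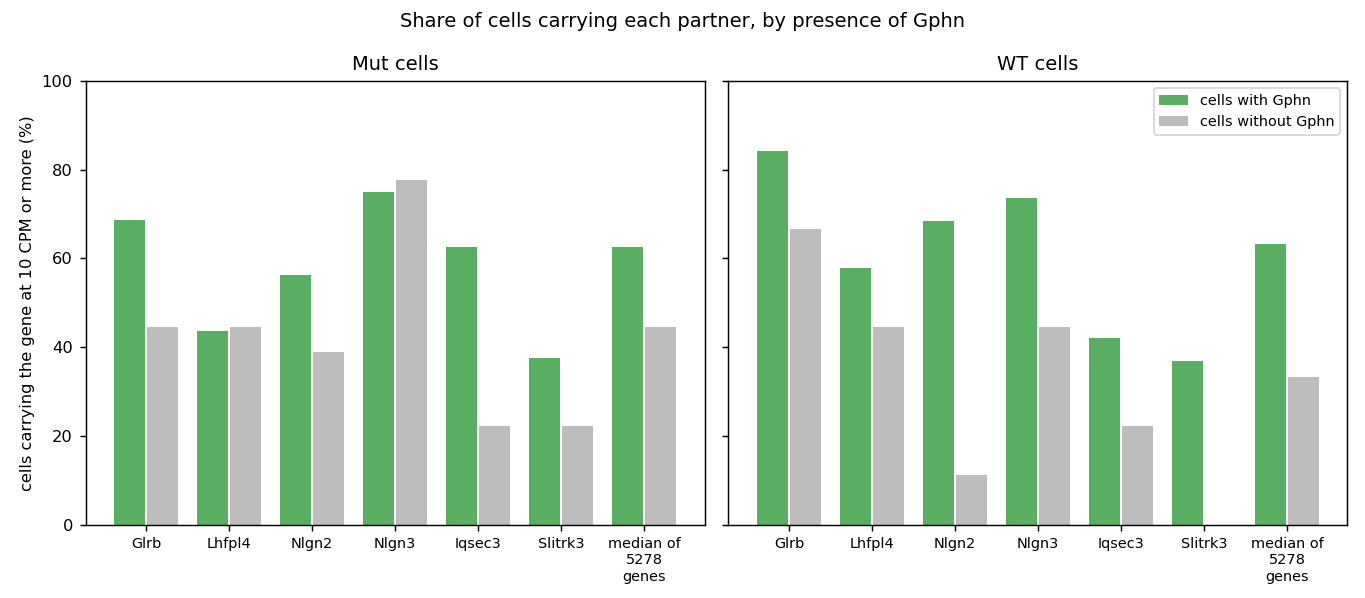
Percent of cells carrying each partner at 10 CPM or more among cells with Gphn (green) and without Gphn (grey), in Mut cells (16 and 18 cells) and in WT cells (19 and 9 cells), with the median over 5278 genes at the right of each panel. The widest gap is that of Iqsec3 in Mut cells and that of Nlgn2 in WT cells.

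As a graded relation the link to Gphn was weak. Over 62 cells Spearman's rho of CPM with Gphn was 0.27 for Iqsec3, 0.19 for Glrb, 0.18 for Nlgn2, 0.14 for Slitrk3, 0.13 for Nlgn3 and 0.044 for Lhfpl4. The 5278 genes had a median rho of 0.099, with the middle 50% from 0.012 to 0.19 and the central 90% from -0.12 to 0.31, so all 6 partners lay within the spread of other genes. In Mut cells alone rho was 0.33 for Iqsec3, -0.018 for Nlgn2 and -0.038 for Slitrk3, and in WT cells alone it was 0.21, 0.33 and 0.37 for the same genes. These points share library depth and cell quality, and Nlgn2, Iqsec3 and Slitrk3 had a rho of 0.38, 0.35 and 0.33 with the number of genes detected. In counts this sparse such values describe the cells at hand only.

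**Figure D5:**
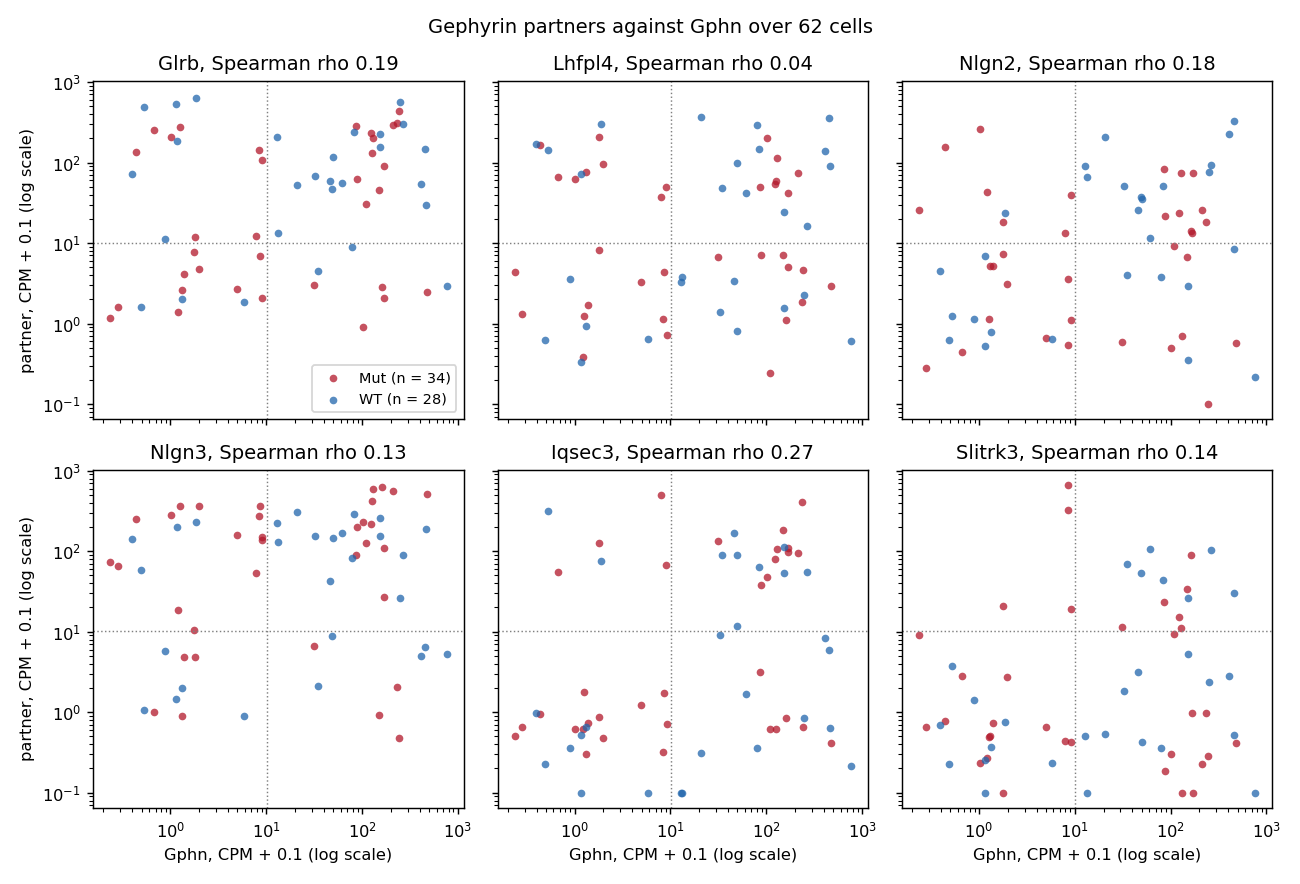
CPM plus 0.1 of each partner (vertical, log axis) against that of Gphn (horizontal, log axis) in 34 Mut and 28 WT cells, where each point is a cell and the dotted lines mark 10 CPM. The points fill all 4 quadrants in most panels, and rho lies between 0.044 for Lhfpl4 and 0.27 for Iqsec3.

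The genes whose levels ran most like each partner over the 62 cells, among 5116 named genes carried by at least 20 cells (5117 for Slitrk3), included no other gene of the inhibitory synapse lists used here. For Iqsec3 they were Usp47 (rho 0.60), Adgrb3 (0.56) and Tbc1d24 (0.54), and for Glrb they were Inpp5f (0.58), Gprin1 (0.53) and Cry2 (0.52). For Nlgn3 they were Rgs17, Gnl3l and Evi5 (each 0.57), and for Slitrk3 Kpna6 (0.57), Mmgt1 (0.53) and Zc3h7a (0.50). For Lhfpl4 they were Rap1gap (0.52), Ccnl2 (0.50) and Dnajb14 (0.48), and for Nlgn2 Fnta (0.51), Ssrp1 and Ube2f (each 0.50). No gene stood among the first 3 of more than 1 partner, and neither Gphn nor another partner appeared among them. Slitrk3, carried by 17 cells, and any listed gene carried by fewer than 20 were not ranked, so they could not appear.

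Other genes of the inhibitory synapse were counted from lists, with 0 genes past the edgeR threshold in each. Of 18 tested scaffold and anchoring genes, 6 were higher and 6 lower in Mut cells of both sexes (median log2 fold change -0.042). The most abundant of them, the actin-binding profilin Pfn2, stood at 527 CPM in Mut against 675 CPM in WT females and 685 CPM in Mut against 682 CPM in WT males, and was carried by 32 of 34 Mut and all 28 WT cells. Dynll1, the dynein light chain that binds gephyrin, had a log2 fold change of -0.20 and the profilin Pfn1 of -0.11. Among 8 presynaptic partners and their regulators, 2 were higher and 2 lower in both sexes (median 0.13). Ptprd, the receptor of SLITRK3, stood at 358 CPM in Mut against 514 CPM in WT females and 388 CPM in Mut against 185 CPM in WT males, and was carried by 29 Mut and 26 WT cells, where Slitrk3 was carried by 10 and 7. Ptprs, a related receptor phosphatase, had log2 ratios of -0.52 in females and 0.50 in males.

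Of 10 GABA-A receptor subunit genes whose proteins are held by gephyrin or LHFPL4, 4 were higher and 0 lower in Mut cells of both sexes and 6 went opposite ways, beside 25.1% higher and 25% lower of all genes. Their median fold change was 0.34, with a median log2 ratio of 0.085 in females and 0.59 in males. Gabra5, an alpha subunit abundant in the hippocampus, had log2 ratios of 1.35 in females and 0.12 in males. Of 10 tested relatives of the partners, 3 were higher and 2 lower in both sexes (median 0.17). Lhfpl3, a relative of Lhfpl4 that oligodendrocyte precursors also express, had the lowest p of all listed genes and is named for that after its values were seen. It was carried by 7 of 34 Mut and 0 of 28 WT cells (exact 95% interval of the WT share up to 12.3%), at 28.4 CPM in Mut females and 0.0752 CPM in WT females, and 17.5 CPM in Mut males and 0.221 CPM in WT males (unadjusted edgeR p = 0.014, adjusted p = 1). The summed level of 5 oligodendrocyte lineage markers ran from 0 to 1916 CPM in Mut cells and from 0 to 624.9 CPM in WT cells (medians 2.02 and 1.29), and its part in the Lhfpl3 values was not tested. Nlgn1, the neuroligin of excitatory synapses, had log2 ratios of -0.44 in females and -0.33 in males. It was carried by 30 Mut and 27 WT cells, more than either Nlgn2 or Nlgn3. Its summed level, not corrected for length, was below that of Nlgn3 in each group, from 43.6 CPM in Mut females to 97.8 CPM in WT males. Its count estimates were not whole numbers in 60 of 62 cells. Iqsec1 had ratios of 0.71 and 0.36, and Slitrk5 of 0.57 and -0.46.

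In the 5 WT cells with a contamination mark the widely carried partners were present, and no cell carried Slitrk3. Glrb was carried by all 5 (11.8 to 106 CPM, median 42.6), Nlgn3 by all 5 (15.3 to 178 CPM, median 63.1) and Nlgn2 by 4 (6.64 to 77.2 CPM, median 28.1). Lhfpl4 and Iqsec3 were carried by 2 each and Slitrk3 by 0 of 5 (exact 95% interval up to 52.2%), with a highest level of 9.54 CPM. These cells held microglial markers at a summed level of 3378 to 12072 CPM, against 1.31 to 7011 CPM in unmarked Mut cells and 0.922 to 1254 CPM in unmarked WT cells, and carried Lhx6 in 2 of 5. Unmarked Mut female cell 20, at 7011 CPM with 9 of 11 microglial markers, lay inside the range of the marked cells, and Mut male cell 18 was next at 2012 CPM. Both are in the Mut sums. With Mut female cell 20 left out the fold changes of the partners ran from -0.55 (Glrb) to 1.01 (Nlgn3), each with its sign as before. With Mut male cell 18 left out that of Slitrk3 was 0.013, and the others kept their signs. With the 5 marked cells added to the WT sums the genotype fold change was -0.41 for Glrb, -0.44 for Lhfpl4, -0.45 for Nlgn2, 0.96 for Nlgn3, 1.14 for Iqsec3 and 0.51 for Slitrk3.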

How the data were processed

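Patch-seq libraries of 76 labelled cells were analysed. Per the submitters' processing notes the reads were quantified with kallisto on GRCm38, with no version given. The deposited count tables hold estimated counts per gene symbol, which need not be whole, before and after the authors' quality filter, whose criterion is not given in the sources used here. Their deposited normalized values are TPM, scaled by transcript length, with the same sum in every cell. Columns of other samples, 44 in the tables after the filter and 52 before it, were not used. Cell numbers follow the order of the labels inside each group, and no 2 kept cells had identical values.

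Counts of the 62 kept unmarked cells were summed by genotype and sex and rounded (61543250 to 120682303 counts per sum). They were filtered with filterByExpr (minimum count 10), scaled by TMM and tested with edgeR 4.0.16 (quasi-likelihood, sex and genotype as terms, Benjamini-Hochberg adjustment over 16435 genes). Within a sex or genotype sums were compared without a test, as the log2 ratio of their TMM-scaled CPM plus a pseudocount of 1 CPM. The level of a cell is its count scaled to its own total as CPM. Exact binomial (Clopper-Pearson) intervals at 95% cover the counting error of cells only, and Poisson intervals at 95% that of reads only. PCR reads are not independent molecules, so the Poisson intervals are too narrow for molecules. They also leave out the spread between cells. The fit was checked on simulated data: at a variation of 0.1 it recovered 99% and 100% of changes of 2 and 4 log2 units. DESeq2 1.42.0, other scalings, filters, thresholds, pseudocounts and left-out cells were tried as alternatives.

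The members and gene lists were chosen with earlier results of these data known. All 6 partners and Gphn are named, with the 3 most abundant tested genes of each other list and the 3 genes of highest rho with each partner, passing over predicted and mitochondrial names. A few genes that this rule takes are left out of the text.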

Additional observations from a re-analysis of the deposited data

Results flagged for a closer look

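Single WT female cells stood far above the others of their group, by a gap to the next cell larger than Dixon's 95% limit for 9 values. They were cell 8 for Gphn (767.7 CPM), cell 9 for Glrb (527 CPM), cell 4 for Lhfpl4 (293 CPM), cell 2 for Iqsec3 (113 CPM) and cell 1 for Slitrk3 (53.2 CPM). No cell was set apart for more than 1 gene. In the 4 WT male cells with a contamination mark, cell 2 stood apart for Lhfpl4 (48.8 CPM) and cell 1 for Slitrk3 (9.54 CPM). In all, 7 of 14 sets of values were set apart. Only the WT females and the 4 marked WT males were checked, as the limits used cover small groups. The Mut groups and the unmarked WT males were not checked, so such cells are not shown to be particular to WT females. Mut male cell 5 alone gave 60.7% of the Slitrk3 counts of its group. Dixon's limit is made for normally distributed values, and the CPM of single cells are skewed. The 14 sets also reuse the same cells, so no chance rate is given.

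Iqsec3 and Slitrk3 had Mut to WT log2 ratios of opposite sign in females and males, 1.79 against -0.13 for Iqsec3 and -0.64 against 1.09 for Slitrk3. No test of this difference was made, since each group is 1 sum.

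Among the 9 cells that the quality filter removed, 8 Mut and 1 WT, some exceeded the highest kept WT cell of their sex. Mut female cell 4 had 298 CPM of Lhfpl4 and 101 CPM of Nlgn2. Mut male cell 11 had 2351 CPM of Gphn and Mut male cell 13 had 456 CPM of Lhfpl4. The removed cells carried a median of 2 of the 6 partners.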

How the results depend on the processing

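No partner passed the adjusted threshold of edgeR under any setting of the test. DESeq2 passed 666 genes and the cells with Neurod6 under 10 CPM 1 gene, none of them a partner, against 0 genes in the test as reported. With each cell left out in turn the log2 fold change ran from -1.02 to 0.098 for Gphn, -0.73 to 0.028 for Glrb and -0.40 to 1.08 for Slitrk3, and kept its sign for Lhfpl4 (-0.73 to -0.14), Nlgn2 (-0.69 to -0.17), Nlgn3 (0.84 to 1.12) and Iqsec3 (0.50 to 1.84). With each of the 4 sums left out, without the sex term, it ran from -0.95 to 0.18 for Nlgn2 and -1.05 to 1.43 for Slitrk3, and kept its sign for Gphn (-1.23 to -0.47), Glrb (-0.77 to -0.37), Lhfpl4 (-1.04 to -0.0019), Nlgn3 (0.75 to 1.30) and Iqsec3 (0.19 to 1.63). In cells with Neurod6 under 10 CPM, a choice made after the data were seen, it was 2.31 for Gphn, 1.33 for Lhfpl4 and -0.17 for Iqsec3. The cause was not tested. Other scalings, no filter, no sex term, equal weight per cell, only Lhx6 cells and added contaminated cells kept every sign of the fitted fold changes. No paired analysis was possible because the replicate numbers follow the order of the labels and pair nothing.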
